A study of Mus musculus with 12 samples.

Results

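The 10 transcripts described here form the G1 gate, the machinery that decides whether a cell leaves the first gap phase and starts to copy its DNA. They were picked by gene symbol from the 55450 genes of the table, and all 10 were measured well enough to be tested. They are the CDK inhibitor genes Cdkn1a, Cdkn1b, Cdkn2c and Cdkn2d, the D cyclin genes Ccnd1, Ccnd2 and Ccnd3, the kinase genes Cdk4 and Cdk6, and the retinoblastoma gene Rb1. In this pathway a D cyclin joins Cdk4 or Cdk6, and the complex phosphorylates Rb, which then releases the E2F factors that switch on genes for DNA replication. INK4 inhibitors such as Cdkn2c and Cdkn2d bind the kinases directly, while the CIP/KIP inhibitors Cdkn1a and Cdkn1b restrain complexes of cyclin E or cyclin A with Cdk2. In blood formation Cdk6 is known for the exit of stem cells from quiescence, and loss of Cdkn2c or Cdkn1b is known to enlarge progenitor pools.

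RNA came from mouse bone marrow cells of donor origin that lacked lineage markers and carried the receptor Kit, sorted from recipients of competitive transplants. There were 4 genotypes with 3 libraries each: WT, Tet2KO (loss of Tet2, an enzyme that oxidises methylated cytosine in DNA), Id1KO (loss of Id1, which keeps E-protein transcription factors off DNA) and dKO, read here as loss of both. The labels give no allele, promoter, age or number of mice, and all cells had passed through a transplant and the same sort. Titles give every library of a genotype 1 sample number, so the 3 may be repeats of 1 cell sample, and p-values measure only the spread between these libraries.

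Total estimated counts ran from 15706407 in a dKO library to 19959183 in a WT library. Levels are given as CPM, counts scaled to library size with the TMM method's adjustment, and every adjusted p comes from edgeR's quasi-likelihood F-test with Benjamini-Hochberg adjustment over 14346 genes, called at 0.05. The targeted genes were not lower where the labels call them lost. Tet2 was 0.39 ± 0.03 higher on the log2 scale (SE; adjusted p = 7.99e-09) in Tet2KO than it was in WT, and Id1 had 24 to 34 counts in WT against 56 to 79 in the other 9 libraries. Counts over a whole gene need not show a partial deletion, and these values do not settle whether a label is right, so genotype names and losses below mean what the libraries are labelled. Kit, the sorting marker, averaged 338 ± 2.32 CPM in the WT libraries, 365 ± 11.1 in those of Tet2KO, 315 ± 1.16 for Id1KO and 320 ± 3.67 for dKO (SD, n = 3). Summed B cell markers stayed between 24.1 and 36.0 CPM in all libraries, beside a neutrophil marker sum of 12040 to 16190.

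The clearest pattern among the 10 transcripts was a lower level of Ccnd1 with Tet2 loss, with or without Id1, together with a smaller rise of Ccnd2 and Cdk6. In Tet2KO against WT, 6 of the 10 were called, where 32.8% of all tested genes were called. Of the 6, 4 were higher (16.6% of all genes) and 2 lower (16.2%). In Id1KO against WT, 4 of 10 were called, beside 15.0% of all genes, with 2 higher (7.26% of all genes) and 2 lower (7.77%). In dKO against WT the count was 5 of 10 beside 19.2%, with 4 higher (10.2%) and 1 lower (8.97%). In dKO against Tet2KO, which asks what loss of Id1 does where Tet2 is lost, only Ccnd2 and Cdk6 were called, 2 of 10 beside 26.4% of all genes, and both were lower (13.4%, with 13.1% of all genes higher). In dKO against Id1KO 5 of 10 were called beside 19.3%, with 3 higher (10.6%) and 2 lower (8.70%). The interaction, which asks whether the Id1 difference is the same with and without Tet2, was called for Cdkn1b and Cdk4, 2 of 10 beside 14.5%, with Cdk4 positive (7.46% of all genes) and Cdkn1b negative (7.03%). These comparisons share libraries and are not independent of each other. The 10 members were chosen with earlier results of these data known, so the counts beside the all-gene shares are a description and no test. Median log2 fold changes over the 10 transcripts lay between -0.05 and 0.13 in the 6 contrasts, and those over all tested genes lay within 0.01 of 0.

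**Figure D1:**
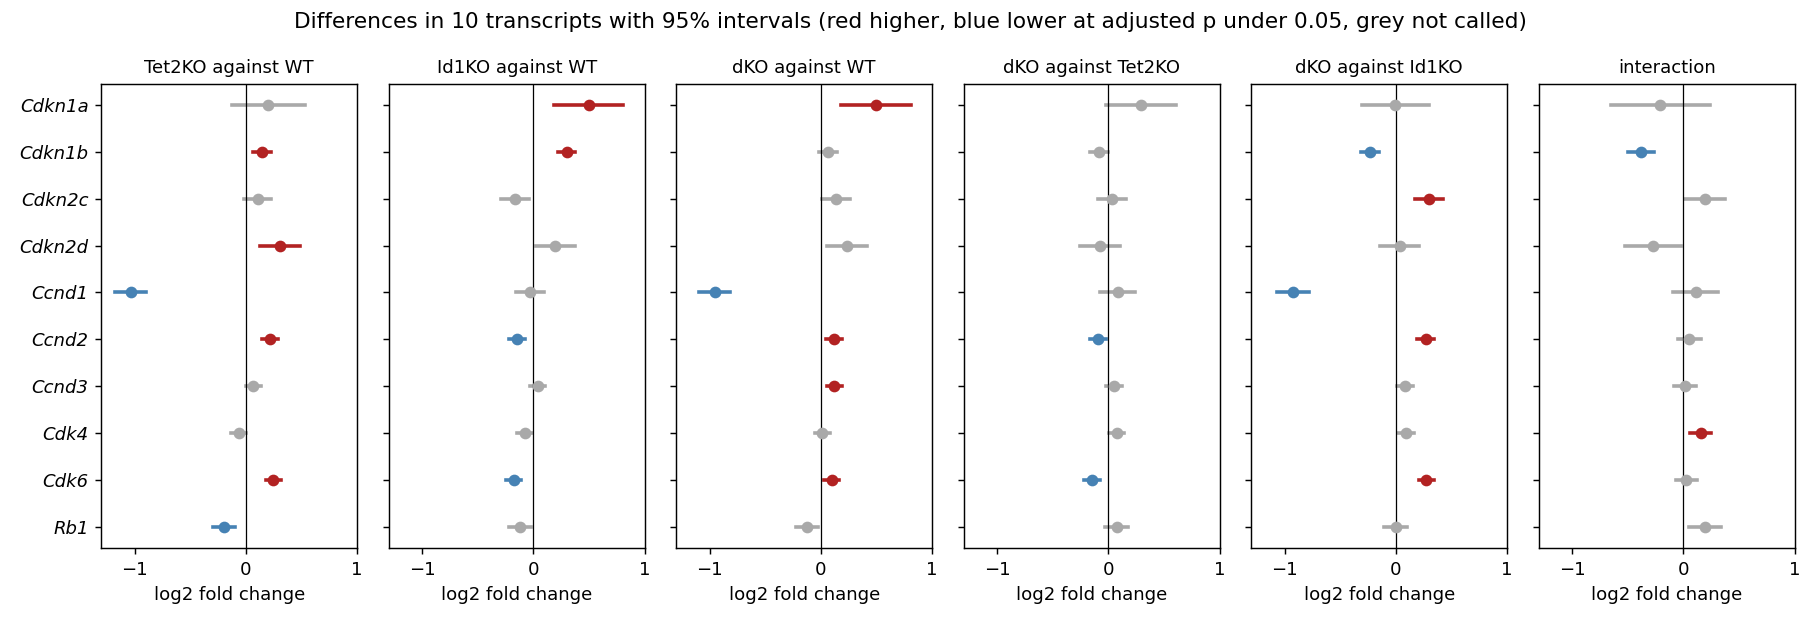
Log2 fold change of each of the 10 transcripts with its 95% interval from edgeR, 1 panel per contrast; red points were called higher, blue points lower and grey points neither. Ccnd1 lies near -1 in the 3 contrasts that differ in Tet2, while Ccnd2 and Cdk6 lie above 0 there.

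The D cyclins carry growth signals to the kinases and differ mainly in where they are expressed. Ccnd1 (cyclin D1, chr7:144929931-144939925 on GRCm38, minus strand) was measured at 34.3, 31.7 and 35.0 CPM in the 3 WT libraries. It was at 16.5, 17.2 and 15.6 CPM in Tet2KO and at 19.2, 15.6 and 17.4 CPM in dKO. The 3 Id1KO libraries had 33.9, 33.7 and 31.4 CPM. The 6 libraries with Tet2 loss were thus all below the 6 without it, with no overlap. Ccnd1 fell by 1.04 ± 0.07 on the log2 scale in Tet2KO against WT (SE; adjusted p = 5.01e-10). It fell by 0.92 ± 0.07 in dKO against Id1KO (adjusted p = 5.06e-09) and by 0.95 ± 0.07 in dKO against WT (adjusted p = 3.25e-09). With Id1 loss alone the difference was -0.03 (95% interval -0.15 to 0.09; adjusted p = 0.787), and between dKO and Tet2KO it was 0.08 (-0.08 to 0.24; adjusted p = 0.474). The interaction for Ccnd1 was 0.11 (-0.09 to 0.31; adjusted p = 0.496).

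Ccnd1 was the only transcript of the 10 that also passed a test against a 1.2-fold change, in the 3 contrasts named. Its calls in dKO against Id1KO and in Tet2KO against WT held under all 21 other settings, with log2 values from -0.999 to -0.85 and from -1.07 to -0.98. With the libraries of each genotype summed to 1 sample, which leaves 1 residual degree of freedom, it was -0.98 (adjusted p = 0.0166) for Tet2 loss, and the dKO against WT difference was no longer called (adjusted p = 0.075). The 12 erythroid markers moved in part with it: their summed level was 1581 to 1629 CPM in WT and 950 to 963 in Tet2KO. There 11 of the 12 were called lower, beside 16.2% of all genes. In dKO, where Ccnd1 was as low, that sum was 1582 to 1601 CPM, inside the WT range. Single markers still differed from WT, 4 higher (Hbb-bs at 14.04 against 7.53 CPM) and 1 lower (Car1 at 441 against 493 CPM). The shares of all genes in that contrast were 10.2% higher and 8.97% lower. Tfrc averaged 342 CPM in dKO and 288 in WT. In Id1KO the sum was 1768 to 1803 CPM, above dKO. In dKO against Id1KO 3 of the markers were called higher and 4 lower, beside 10.6% and 8.70% of all genes. The part of these markers in the Ccnd1 differences was not tested. No marker of the list was at 0 throughout. In these sorted pools, fewer cells of a type and less RNA per cell cannot be told apart.

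Ccnd2 (cyclin D2, chr6:127125162-127152193, minus strand), the D cyclin with the most reads, moved the other way. It stood at 195, 174 and 181 CPM in WT and at 208, 213 and 218 CPM in Tet2KO. In Id1KO it stood at 165, 168 and 164 CPM and in dKO at 194, 204 and 200 CPM. The Id1KO libraries were the lowest of all 12 and the Tet2KO libraries the highest, with WT and dKO overlapping between them. Ccnd2 was 0.22 ± 0.03 higher on the log2 scale in Tet2KO than it was in WT (SE; adjusted p = 7.06e-05). The difference between dKO and Id1KO was 0.27 ± 0.04 (adjusted p = 1.57e-05). It fell by 0.15 ± 0.04 in Id1KO against WT (adjusted p = 0.00761), a call lost without WT replicate 1 (adjusted p = 0.0631). Between dKO and Tet2KO the value was -0.10 ± 0.03 (adjusted p = 0.0479), and 7 of the 12 fits that left out 1 library lost the call, with adjusted p of 0.052 to 0.173, as did DESeq2 (0.0605). Those 7 left out WT replicate 3, Tet2KO replicate 2 or 3, Id1KO replicate 1 or 2, or dKO replicate 1 or 3. In dKO against WT it was 0.12 (adjusted p = 0.0191), not called without WT replicate 2 (0.113), WT replicate 3 (0.0694) or dKO replicate 2 (0.0607).

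Ccnd3 (cyclin D3, chr17:47505051-47599691, plus strand), which is tied to red cell and lymphoid divisions, was the steadiest D cyclin. Its level ranged from 90.2 to 94.1 CPM for WT, 93.5 to 99.4 for Tet2KO, 92.2 to 95.6 for Id1KO and 97.6 to 101 for dKO. Only dKO against WT was called, at 0.12 ± 0.03 on the log2 scale (SE; adjusted p = 0.0137). That call was lost without WT replicate 2 (adjusted p = 0.0514) or dKO replicate 3 (adjusted p = 0.055), and in DESeq2 (0.0552).

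**Figure D2:**
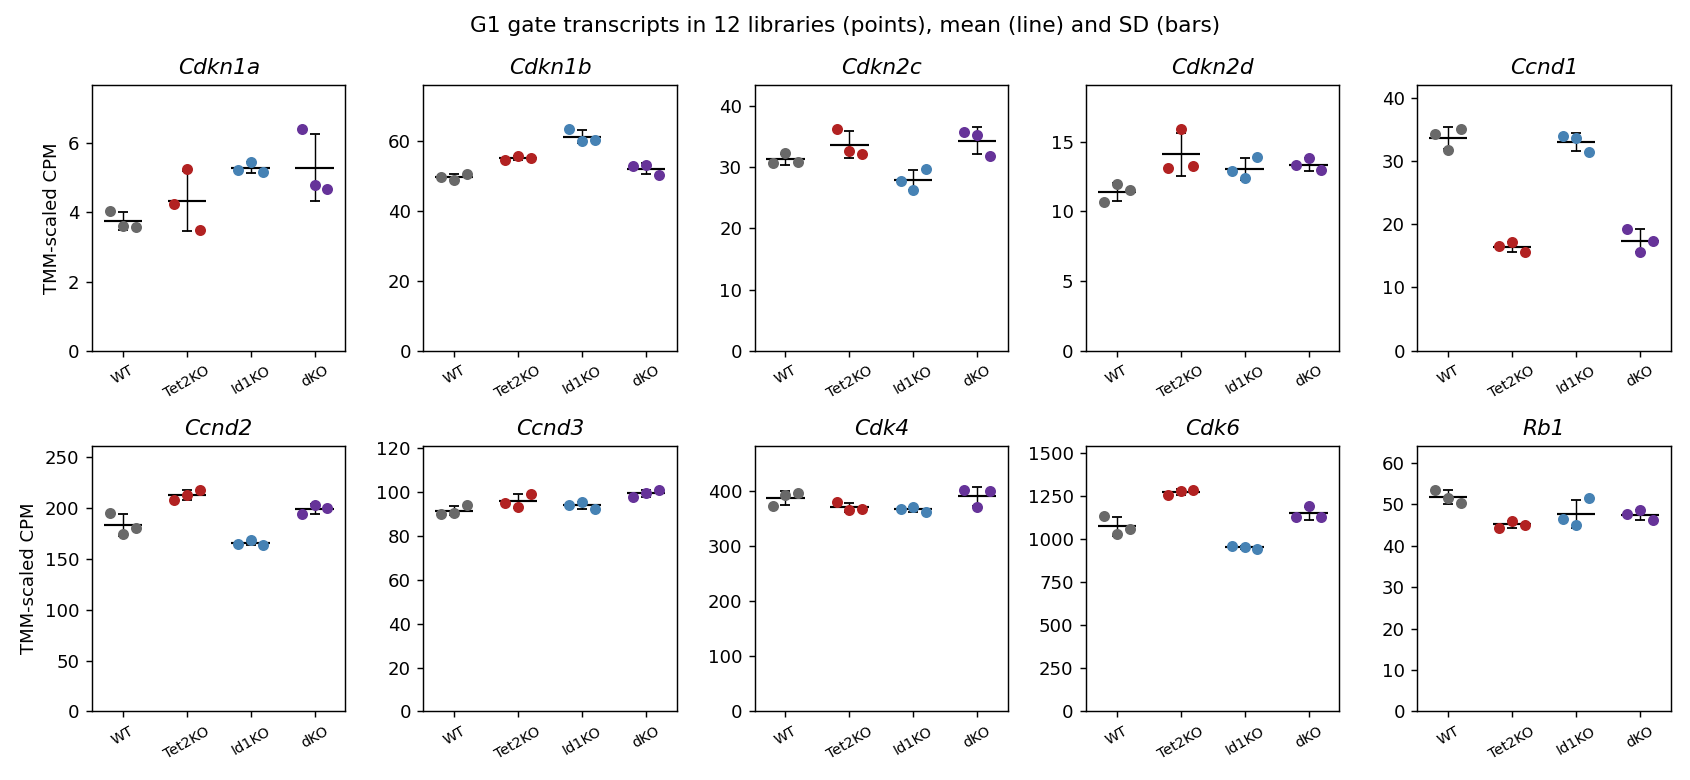
TMM-scaled CPM of the 10 transcripts in each of the 12 libraries (points, coloured by genotype), with the mean (line) and SD (bar) of 3 libraries per genotype; each vertical axis starts at 0. The Tet2KO and dKO points for Ccnd1 sit between 15.6 and 19.2 CPM, below all WT and Id1KO points.

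Because Ccnd1 fell while Ccnd2 rose, the make-up of the D cyclin transcripts shifted. Their sum per kilobase of merged exon moved little, and levels of the sum are given by that length only. Per kilobase of merged exon, the summed D cyclin level averaged 37.1 ± 1.39 CPM for WT, 37.1 ± 0.70 for Tet2KO, 35.3 ± 0.67 for Id1KO and 36.2 ± 0.30 for dKO (SD, n = 3). Ccnd1 made up 19.3 ± 0.53% of that sum in WT and 19.8 ± 0.54% in Id1KO. It made up 9.43 ± 0.57% in Tet2KO and 10.2 ± 1.1% in dKO, outside the range of the other 6 libraries. The Ccnd2 share was 52.5 ± 1.41% for WT, 61.1 ± 0.38% for Tet2KO, 49.9 ± 0.49% for Id1KO and 58.5 ± 1.01% for dKO. The Ccnd3 share rested between 28.2% and 31.3% in the means of all 4 genotypes. The shares are a description, and no test was run on them.

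The order of the D cyclins depended on which length was used. Per kilobase of merged exon in WT, the level was 19.5 CPM for Ccnd2, 10.4 for Ccnd3 and 7.15 for Ccnd1. Per kilobase of the longest principal transcript, a length chosen after the data were seen, it was 43.4 for Ccnd3, 29.0 for Ccnd2 and 9.01 for Ccnd1. By that second length Ccnd1 made up 11.1% of the sum for WT, 5.27% for Tet2KO, 11.1% for Id1KO and 5.60% for dKO, so its lower share with Tet2 loss was seen by both lengths.

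**Figure D3:**
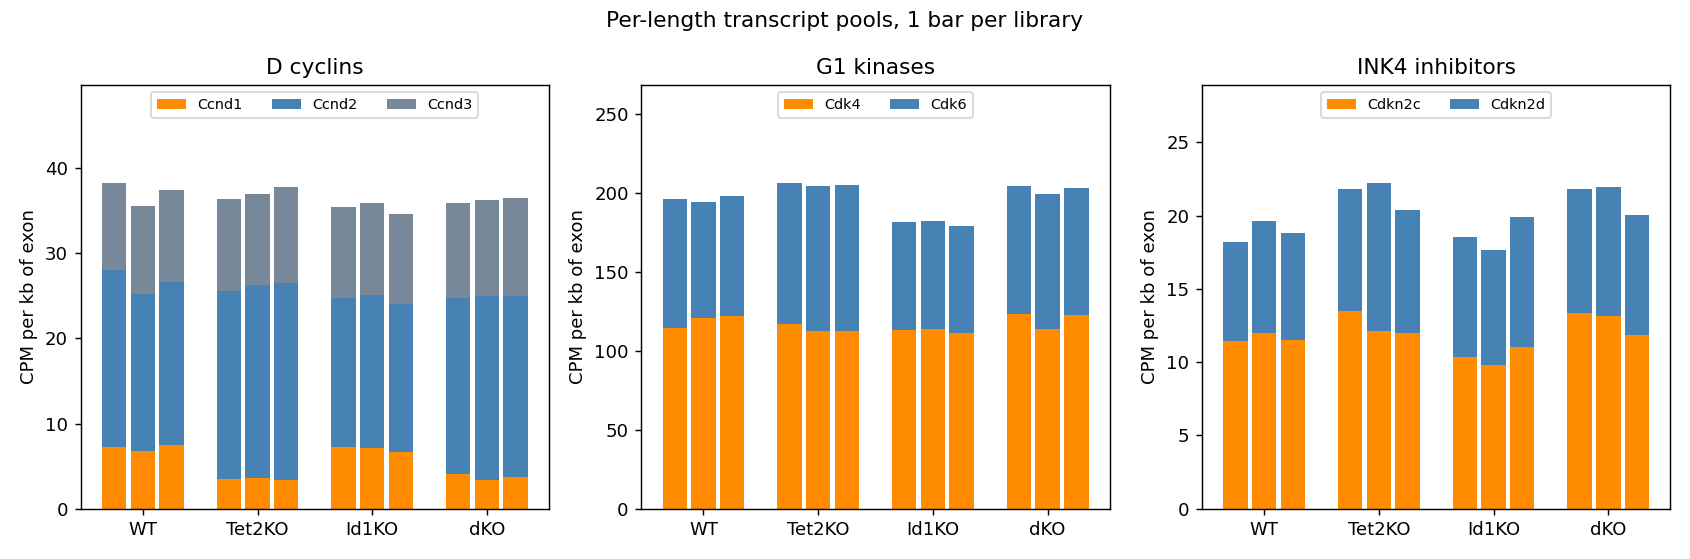
Stacked TMM-scaled CPM per kilobase of merged exon for the D cyclins, the G1 kinases and the INK4 inhibitors, 1 bar per library in 4 genotypes. The D cyclin bars reach similar heights, between 34.6 and 38.3, while the Ccnd1 section is smaller in Tet2KO and dKO.

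The kinases Cdk4 and Cdk6 are the partners that D cyclins activate, and they were the most abundant of the 10 transcripts per length. Cdk6 (chr5:3341485-3531008, plus strand) stood at 1136, 1031 and 1058 CPM in WT and at 1254, 1282 and 1286 CPM in Tet2KO. It stood at 959.9, 953 and 945 CPM in Id1KO and at 1128, 1195 and 1127 CPM in dKO. As for Ccnd2, Id1KO was lowest and Tet2KO highest, neither overlapping any other genotype, and WT and dKO overlapped. Cdk6 was 0.24 ± 0.03 higher on the log2 scale in Tet2KO than it was in WT (SE; adjusted p = 7.79e-06) and 0.27 ± 0.03 higher in dKO than in Id1KO (adjusted p = 4.37e-06). With Id1 loss it fell by 0.17 ± 0.03 against WT (adjusted p = 0.000945) and by 0.15 ± 0.03 against Tet2KO (adjusted p = 0.00196). Its interaction was 0.03 (95% interval -0.07 to 0.12; adjusted p = 0.757). The increase in dKO against WT was 0.10 (adjusted p = 0.0402). That call was lost without WT replicate 2 (0.182), WT replicate 3 (0.127), dKO replicate 2 (0.142) or Id1KO replicate 2 (0.0511). It was also lost with upper-quartile scaling (0.0565), only the libraries compared (0.112), a replicate block, summed libraries and the 1.2-fold test. The 2 increases with Tet2 loss kept their calls in every fit that left out 1 library, and with summed libraries the value was 0.26 (adjusted p = 0.0353).

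The summed level of 7 monocyte and dendritic markers took the same genotype order as Cdk6 and Ccnd2. It ran from 773 to 792 CPM for WT, 866 to 873 for Tet2KO, 669 to 679 for Id1KO and 851 to 872 for dKO. Taken singly, 2 of the 7 had that order of means (Csf1r and Flt3), while Ly86 and Cx3cr1 were highest in WT and Irf8 and Ccr2 in dKO. None of the 7 was at 0 in all libraries, and their part in the Cdk6 and Ccnd2 differences was not tested.

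Cdk4 (chr10:127063534-127067920, plus strand) stood at 372, 392 and 397 CPM in WT and at 379, 365 and 366 CPM in Tet2KO. It stood at 368, 370.4 and 361 CPM in Id1KO and at 401, 370.2 and 399 CPM in dKO. WT lay above Id1KO with no overlap, and every other pair of genotypes overlapped. No pairwise contrast was called, the largest being 0.09 ± 0.03 on the log2 scale in dKO against Id1KO (SE; adjusted p = 0.0583), which was called without dKO replicate 2 (0.00575) or WT replicate 1 (0.042). Leaving out dKO replicate 2 also gave a call in dKO against Tet2KO (0.11; adjusted p = 0.0116), and leaving out WT replicate 1 gave one in Id1KO against WT (-0.10; adjusted p = 0.0499). The Cdk4 interaction was 0.15 ± 0.05 (adjusted p = 0.0281). It was lost in 8 of the 12 fits that left out 1 library (highest adjusted p = 0.0926), and kept without WT replicate 1, Tet2KO replicate 1, Id1KO replicate 2 or dKO replicate 2. Per kilobase of merged exon, Cdk6 made up 39.2 ± 1.96% of the 2 kinases for WT, 44.4 ± 0.87% for Tet2KO, 37.7 ± 0.21% for Id1KO and 40.7 ± 1.89% for dKO (SD, n = 3).

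**Figure D4:**
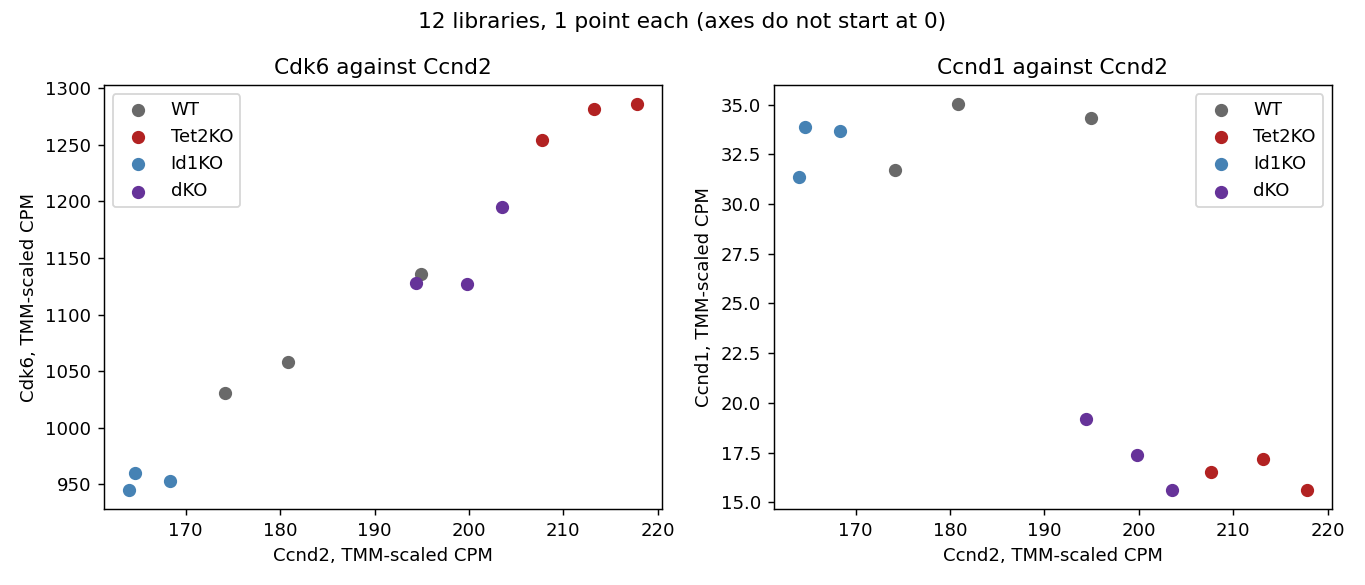
TMM-scaled CPM of Cdk6 (left) and Ccnd1 (right) against Ccnd2 in the 12 libraries, coloured by genotype; axes do not start at 0. Cdk6 and Ccnd2 are lowest in Id1KO and highest in Tet2KO, while Ccnd1 splits the libraries by Tet2 label.

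Among CDK inhibitors, the CIP/KIP genes were called higher in Id1KO against WT. Neither was called in dKO against Tet2KO, and the interaction was called for Cdkn1b only. Cdkn1b (chr6:134920401-134925513, plus strand), whose protein holds back Cdk2 in resting cells, stood at 49.7, 48.9 and 50.6 CPM in WT and at 54.4, 55.7 and 55.2 CPM in Tet2KO. It stood at 63.3, 59.9 and 60.2 CPM in Id1KO and at 52.7, 53.0 and 50.2 CPM in dKO. Id1KO was above all other genotypes, and dKO overlapped only WT. Cdkn1b was 0.30 ± 0.04 higher on the log2 scale in Id1KO than in WT (SE; adjusted p = 2.05e-05) and 0.15 ± 0.04 higher in Tet2KO (adjusted p = 0.00647). It fell by 0.23 ± 0.04 in dKO against Id1KO (adjusted p = 2.00e-04). The dKO against WT difference was 0.06 (95% interval -0.02 to 0.15; adjusted p = 0.296), and that of dKO against Tet2KO was -0.08 (adjusted p = 0.129). The interaction was -0.38 ± 0.06 (adjusted p = 9.49e-05), and it was called in every fit that left out 1 library. Under a fit to summed libraries with additive labels, which allows no interaction, the Tet2 value turned to -0.04 (adjusted p = 0.891).

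Cdkn1a (chr17:29090976-29100727, plus strand), which p53 induces after DNA damage, was the lowest of the 10 transcripts, at 65 to 105 counts per library. It stood at 4.04, 3.61 and 3.57 CPM in WT, and at 5.22, 5.46 and 5.17 CPM in Id1KO. Tet2KO had 4.23, 5.24 and 3.50 CPM and dKO 6.40, 4.79 and 4.67 CPM. WT did not overlap Id1KO or dKO, and Tet2KO spread across WT and dKO. The difference from WT was 0.50 ± 0.15 on the log2 scale in Id1KO (SE; adjusted p = 0.0283) and 0.49 ± 0.15 in dKO (adjusted p = 0.0269). The Id1KO call was lost in 5 of the 12 fits that left out 1 library (WT replicate 2 or 3, or any Id1KO replicate; adjusted p of 0.056 to 0.0894). The dKO call was lost in 3, with adjusted p = 0.157 without dKO replicate 1, 0.0794 without WT replicate 2 and 0.0839 without WT replicate 3. DESeq2 called neither (0.0593 and 0.064).

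The INK4 genes Cdkn2c and Cdkn2d block Cdk4 and Cdk6 directly. Cdkn2c (chr4:109660876-109667189, minus strand) stood at 30.7, 32.3 and 30.9 CPM in WT and at 36.2, 32.6 and 32.2 CPM in Tet2KO. It was at 27.7, 26.3 and 29.7 CPM in Id1KO and at 35.8, 35.3 and 31.8 CPM in dKO. The Id1KO libraries were the lowest 3 of the 12, and the other 3 genotypes overlapped. Cdkn2c was 0.30 ± 0.06 higher on the log2 scale in dKO than in Id1KO (SE; adjusted p = 0.00158). Its value in Id1KO against WT was -0.16 ± 0.06 (adjusted p = 0.0757), called without Id1KO replicate 3 (adjusted p = 0.05 after rounding). In dKO against WT it was 0.13 (adjusted p = 0.133), called without dKO replicate 3 (0.0491).

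Cdkn2d (chr9:21288410-21291407, minus strand) stood at 10.7, 11.96 and 11.5 CPM in WT, and at 13.1, 15.9 and 13.3 CPM in Tet2KO. Id1KO had 12.9, 12.4 and 13.9 CPM and dKO 13.3, 13.8 and 12.9 CPM. All 9 libraries labelled with a lost gene were above the 3 WT libraries, but only Tet2KO against WT was called, at 0.31 ± 0.09 on the log2 scale (SE; adjusted p = 0.0087), and not without Tet2KO replicate 2 (adjusted p = 0.0708). In dKO against WT the value was 0.23 (adjusted p = 0.0673), called without Tet2KO replicate 2 (0.0429). Of the other CDK inhibitors, Cdkn2a had 0 counts in all 12 libraries, Cdkn2b at most 1 and Cdkn1c 4 to 12. Cdkn3 was tested and called in no contrast.

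Rb1 (chr14:73183673-73325822, minus strand), whose protein the kinases switch off, was highest in WT. It stood at 53.5, 51.6 and 50.2 CPM in WT and at 44.4, 46.1 and 45.0 CPM in Tet2KO. Id1KO had 46.4, 45.0 and 51.5 CPM and dKO 47.5, 48.7 and 46.3 CPM. WT did not overlap Tet2KO or dKO. Rb1 fell by 0.20 ± 0.05 on the log2 scale in Tet2KO against WT (SE; adjusted p = 0.00378). Its values in Id1KO and dKO against WT were -0.12 and -0.12 (adjusted p = 0.0941 and 0.0802), and both were called without Id1KO replicate 3 (0.0178 and 0.0466), as was the interaction (0.25; adjusted p = 0.0135). With all 12 libraries the Rb1 interaction was 0.19 (adjusted p = 0.0661).

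Id1 keeps E-proteins off E boxes, whose letters are CANNTG, so the 250 bases before RefSeq starts were read for that motif, with capitals marking each match. The windows are from RefSeq on GRCm38.p6, and 7 of the 10 genes had a window, 10 windows in all. Shown are 4 genes with a window and a call in Id1KO against WT or in the interaction.
Cdk4, chr10:127063285-127063534, plus strand: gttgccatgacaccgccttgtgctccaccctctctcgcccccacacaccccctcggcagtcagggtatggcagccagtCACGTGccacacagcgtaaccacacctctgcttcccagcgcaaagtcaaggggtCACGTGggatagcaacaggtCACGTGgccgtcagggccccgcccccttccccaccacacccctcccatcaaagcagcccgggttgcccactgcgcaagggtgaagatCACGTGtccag
Cdk6, chr5:3343643-3343892, plus strand: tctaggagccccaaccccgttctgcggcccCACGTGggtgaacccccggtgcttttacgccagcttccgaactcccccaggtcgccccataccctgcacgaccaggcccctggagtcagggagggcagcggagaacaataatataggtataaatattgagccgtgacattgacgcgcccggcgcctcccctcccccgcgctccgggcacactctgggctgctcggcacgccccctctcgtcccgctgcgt
Cdkn1a, second start, chr17:29093519-29093768, plus strand: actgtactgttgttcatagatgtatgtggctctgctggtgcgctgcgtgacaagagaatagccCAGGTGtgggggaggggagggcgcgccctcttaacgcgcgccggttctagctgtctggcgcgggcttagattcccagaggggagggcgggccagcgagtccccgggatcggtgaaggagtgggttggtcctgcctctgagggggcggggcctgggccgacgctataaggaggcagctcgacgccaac
Cdkn1b, chr6:134920151-134920400, plus strand: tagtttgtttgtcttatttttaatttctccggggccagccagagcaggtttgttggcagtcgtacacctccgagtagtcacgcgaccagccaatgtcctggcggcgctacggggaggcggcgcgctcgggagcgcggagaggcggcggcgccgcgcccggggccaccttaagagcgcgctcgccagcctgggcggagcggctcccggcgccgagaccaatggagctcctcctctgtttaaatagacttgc
The motif was sought on both strands, which its palindromic form makes the same. Cdk4 held 4 matches, all of them CACGTG, the form that Myc with Max binds. Cdk6 held 1 CACGTG, the Cdkn1a window shown held 1 CAGGTG, and none of the other 7 windows held a match, Cdkn1b included. Of all 32851 windows of this length, 66.2% held CANNTG at least once, 3.84% held it 4 times or more, 6.02% held CACGTG, and 7 windows held CACGTG 4 times or more. These matches describe letters and not binding.

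For the 3 members with the widest range of genotype means among the 9 with a mean of at least 5 CPM, which leaves out Cdkn1a, the genes most like them over the 12 libraries were listed among 9828 tested genes. Ccnd1 was matched most closely by Csf2ra, a cytokine receptor chain (Pearson 0.977, Spearman 0.867), Slc4a8 (0.975 and 0.741) and Abhd11 (0.973 and 0.804). The genes nearest to Cdk6 were Satb1, a chromatin organiser (0.987 and 0.986), Ccnd2 (0.987 and 0.972) and Mpeg1 (0.984 and 0.951). Nearest to Ccnd2 were Cdk6, Ncoa6 (0.984 and 0.972) and Zmiz1 (0.983 and 0.972). The points share 4 genotypes, so these correlations describe the libraries and carry no p.

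Among 17 E2F and pocket-protein partners, 3 rose and 3 fell in Tet2KO against WT, a share near that of all tested genes (16.6% higher, 16.2% lower). E2f4, an E2F that represses with pocket proteins, fell by 0.27 ± 0.05 on the log2 scale (SE; adjusted p = 1.98e-04) and was 0.33 ± 0.05 higher in dKO than in Tet2KO (adjusted p = 3.90e-05). E2f1, an activating E2F, fell by 0.26 ± 0.06 in dKO against Tet2KO (adjusted p = 0.00224). Of 7 tested genes of the cyclin E, cyclin A and Cdk2 module, 2 fell and 1 rose in Tet2KO against WT, counts too small to set apart from those shares. Ccne1, the cyclin that follows the D cyclins, fell by 0.45 ± 0.05 in that contrast (adjusted p = 8.61e-07) and was 0.53 ± 0.05 higher in dKO than in Tet2KO (adjusted p = 2.32e-07). Of 11 genes for turnover and activation of the G1 kinases, 2 fell and none rose in Tet2KO against WT, near the 16.2% of all genes called lower, among them Cdk7, whose product activates CDKs (fell by 0.17 ± 0.04; adjusted p = 0.00376).

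Further downstream, replication and mitosis genes were called higher and not lower in dKO against Tet2KO. The gene lists were chosen with earlier results of these data known, so their counts beside the all-gene shares are a description and no test. Of 25 replication genes known as E2F targets, 12 fell and none rose in Tet2KO against WT, where 16.2% of all genes were called lower. In dKO against WT the replication count was 4 higher and 1 lower of 25, beside 10.2% and 8.97% of all genes, counts too small to set apart from those shares. In dKO against Tet2KO 11 rose and none fell, beside 13.1% of all genes called higher. Rrm2, a subunit of ribonucleotide reductase, was 0.22 ± 0.03 higher there (SE; adjusted p = 5.09e-05), and Cdc6, which loads the replicative helicase, fell by 0.19 ± 0.03 in Tet2KO against WT (adjusted p = 2.02e-04). Of 20 G2 and mitosis genes, 17 rose and none fell in dKO against Tet2KO, and 19 rose in dKO against WT, beside 10.2% of all genes called higher. In Id1KO against WT 13 of the 20 rose and none fell, beside 7.26%. Plk1, a mitotic kinase, was 0.32 ± 0.05 higher in dKO than in Tet2KO (adjusted p = 3.16e-05). Of 16 upstream regulators, 7 rose and 2 fell in Tet2KO against WT, beside 16.6% and 16.2% of all genes, with Mycn 0.42 ± 0.09 higher (adjusted p = 0.00139). In dKO against Tet2KO 1 of the 16 rose and 2 fell, beside 13.1% and 13.4%. Myc was 0.14 ± 0.03 higher there (adjusted p = 0.00383), Kit fell by 0.19 ± 0.03 (adjusted p = 2.52e-05) and Gfi1 fell by 0.17 ± 0.04 (adjusted p = 0.00178). The erythroid marker sum given above was also higher in dKO than in Tet2KO. Of its 12 markers 11 were called higher, beside 13.1% of all genes, and their part in these counts was not tested.

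**Figure D5:**
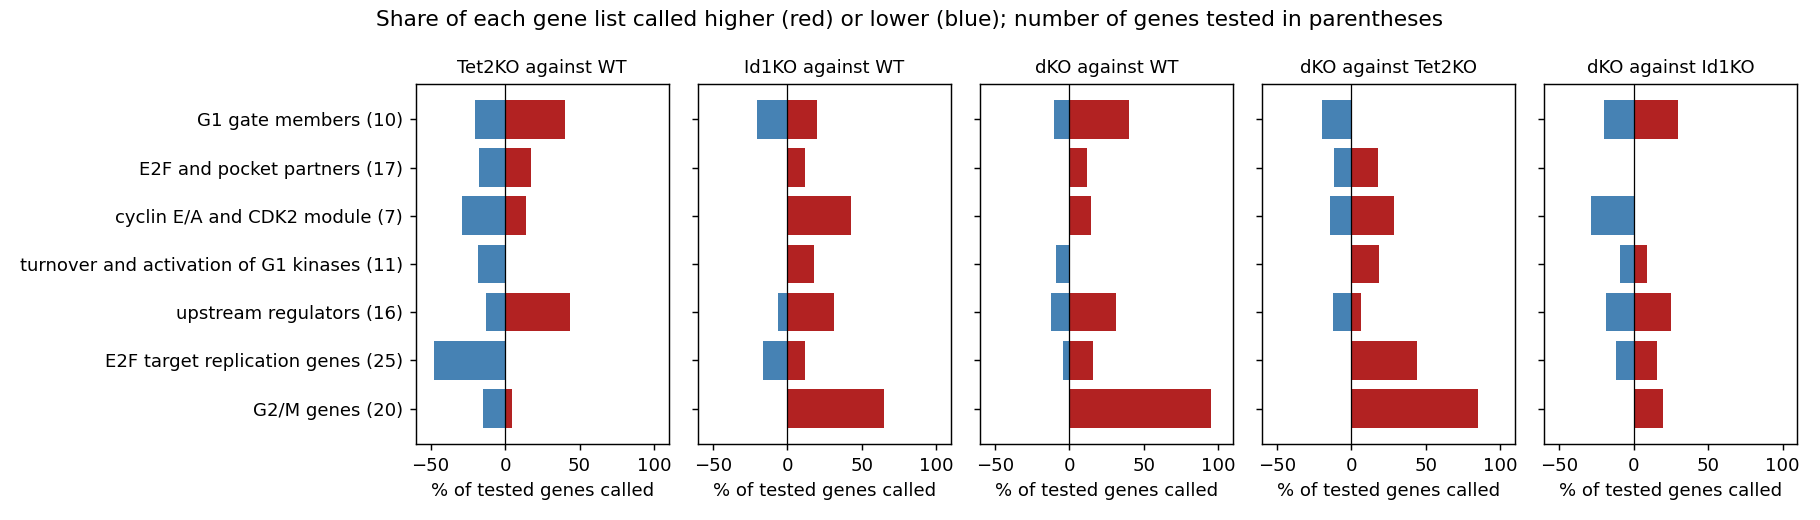
Share of each gene list called higher (red, right) or lower (blue, left) by edgeR in 5 contrasts, in percent of tested genes; the number tested is in parentheses. The bars for G2 and mitosis genes reach 17 of 20 genes in dKO against Tet2KO, while the 10 gate transcripts show 2 lower and none higher there.

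Some exons are shared with genes read from the other strand, and whether counting used strand is not given in the sources used here. Ccnd1 shares 1100 exonic bases with LTO1, which had 256 to 334 counts per library and a log2 difference of 0.12 (adjusted p = 0.213) in Tet2KO against WT. Bysl shares 361 bases with Ccnd3 and was called lower in that contrast (-0.25, adjusted p = 1.88e-04), where Ccnd3 was not called (0.07, adjusted p = 0.121). In dKO against WT, where Ccnd3 was called, Bysl had -0.015 (adjusted p = 0.858). Cdk4 shares 641 bases with Tspan31, and Rb1 shares 488 with Rcbtb2 and 408 with Lpar6. At 95% identity over 100 bases or more, the longest match of Ccnd3 elsewhere was 881 bases, in Ccnd3-ps, which had 0 to 10 counts per library. The longest was 289 bases for Cdk6 and 165 for Cdkn1a. Reads from matching stretches of those 3 genes could in part be shared with other transcripts, which was not tested.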

How the data were processed

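The authors deposited expected counts per gene from RSEM (12 libraries), with STAR and mm10, per the submitters' processing notes, which give no versions; annotation and strand setting are not given in the sources used here. Libraries were stranded total RNA after ribosomal depletion, per the labels' protocols. Of the genes, 8.25% held a fractional value, and expected counts were rounded. All 55450 identifiers matched GENCODE M21 (GRCm38). Genotype groups came from the labels.

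Genes were filtered with edgeR 4.0.16 (R 4.3.3; filterByExpr, minimum count 10; 14346 tested), scaled by TMM and fitted with 1 mean per genotype over all 12 libraries; the quasi-likelihood F-test was two-sided with Benjamini-Hochberg adjustment at 0.05. The biological coefficient of variation was 0.031. Alternatives were other scaling, DESeq2 1.42.0, no filter, only the libraries compared, leaving out each library, a replicate block, a 1.2-fold threshold and summed libraries. Within-genotype libraries differed beyond sampling noise (chi-square per degree of freedom 1.52 to 5.35), so all were kept. That check cannot tell separate cell samples from repeat preparations of 1 sample. On simulated data 51% of genes changed 1.2-fold and 89.5% of genes changed 2-fold in Tet2KO against WT were recovered, with 2 and 11 false calls among 14163 tested genes. The simulation gave every gene the same spread and changed only 200 genes, so these rates need not hold for the real contrasts.

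The members and gene lists were chosen with earlier results of these data known. All 10 members were named. From each pathway list, for Tet2KO against WT and dKO against Tet2KO, up to 3 called genes with the largest log2 fold change and a mean of at least 5 CPM could be named. Sequences similar to the members were sought with blast 2.17.0.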

Additional observations from a re-analysis of the deposited data

Results flagged for a closer look

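The Id1 difference with and without Tet2 was compared as an interaction on the log2 scale (dKO minus Tet2KO minus Id1KO plus WT), and 14 of the 40 named genes passed the edgeR adjusted p threshold, beside 14.5% of all genes tested; named genes were chosen largely for changes in 2 of the contrasts in that sum. Over all 107 tested members and pathway genes, 25 passed, 17 positive and 8 negative, among them Ccne2 at -0.29 ± 0.08 (SE; adjusted p = 0.0219), named after its value was seen. Groups of 3 libraries allow no test for a stray library. Cdkn1b had an interaction of -0.38 ± 0.06 (SE; adjusted p = 9.49e-05), higher with Id1 loss where Tet2 was intact. Cdk4 had 0.15 ± 0.05 (adjusted p = 0.0281). The targeted gene Id1 had -1.40 ± 0.23 (adjusted p = 3.01e-04), being lower in the WT libraries than in all others. Among regulators, Mycn had -0.79 ± 0.13 and Gfi1 -0.28 ± 0.05 (adjusted p = 2.43e-04 and 5.59e-04).

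Among the cyclins and E2F genes, Ccne1 had 0.37 ± 0.07 (adjusted p = 0.00101), E2f4 0.36 ± 0.07 (adjusted p = 8.76e-04) and Ccna2 0.13 ± 0.04 (adjusted p = 0.0468). Wee1, which restrains Cdk activity, had -0.19 ± 0.06 (adjusted p = 0.025), and Cdk7 0.19 ± 0.06 (adjusted p = 0.0384). The replication genes Gins1 and Rrm2 had 0.24 ± 0.07 and 0.18 ± 0.05 (adjusted p = 0.022 and 0.0143). The mitotic cyclins Ccnb2 and Ccnb1 had 0.17 ± 0.05 and 0.17 ± 0.05 (adjusted p = 0.0266 and 0.0225). Of the 12 erythroid markers, 10 had a called positive interaction and 0 a negative one (median 0.73). Of the 7 megakaryocyte markers, 4 had a called negative one and 0 a positive one (median -0.38). Shares of all genes were 7.46% positive and 7.03% negative. The part of these markers in the interactions listed was not tested.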

How the results depend on the processing

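Of the 24 calls over the 10 members, 15 were kept in every fit that left out 1 library, and RLE scaling and TMM without the most abundant genes kept all 24; upper-quartile scaling lost 1, the libraries compared alone 2 of 22 and DESeq2 4. Testing all genes with any count kept all 24 and added 5. Against a 1.2-fold change 3 calls remained, giving 1, 0, 1, 0, 1 and 0 members called for Tet2KO, Id1KO and dKO (each compared with WT), for dKO compared with Tet2KO and with Id1KO, and for the interaction. With libraries summed per genotype the first 5 counts were 2, 0, 0, 0 and 2, and Cdkn1b in Tet2KO against WT reversed to -0.040. The summed fit had additive labels, so its Tet2 value served for Tet2KO against WT and dKO against Id1KO alike. For Cdkn1b the main fit gave 0.15 and -0.23 in those contrasts, so -0.040 is a value shared by them. Its Id1 value likewise served for Id1KO against WT and dKO against Tet2KO, so equal summed counts there are the same test. In dKO against WT, 3 members were called with only the libraries compared and 3 with DESeq2. In dKO against Tet2KO 1 was called with DESeq2. Leaving out 1 library gave 5 to 6, 3 to 5, 1 to 6, 1 to 3, 5 to 6 and 1 to 2 members called, in the same order; the lowest dKO against WT count, 1, came without WT replicate 2.

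Same-numbered libraries deviated together weakly if at all (correlations -0.10 to 0.11 in 18 pairs). Of the 12 libraries, 6 correlated best with their own number. The same-numbered pairs that held a WT library were all above 0, from 0.02 to 0.09. In the main fit the numbers were not read as pairs. The replicate block kept 22 of 24 calls, losing Cdk6 in dKO against WT (adjusted p = 0.0617) and Ccnd2 in dKO against Tet2KO (adjusted p = 0.0712), with 1 member called in dKO against Tet2KO.

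Over all genes, the 1.2-fold test called 769, 140, 477, 334, 481 and 237 genes, against 4699, 2156, 2754, 3793, 2762 and 2078; summed libraries called 232, 7, 11, 7 and 232, and DESeq2 1342 for the interaction. Plain counts moved the Ccnd1 share to 10.9%, 5.06%, 11.3% and 5.51% (WT, Tet2KO, Id1KO, dKO), the Cdk6 share to 73.5%, 77.5%, 72.2% and 74.7%, and the Cdkn2c share of the INK4 sum to 73.3%, 70.5%, 68.1% and 72.0%. The principal-transcript length, chosen after seeing the data, moved the Ccnd1 share to 11.1%, 5.27%, 11.1% and 5.60%, the Cdk6 share to 33.1%, 38.0%, 31.7% and 34.5%, and the Cdkn2c share in Id1KO to 55.2%. The cause of the other changes was not tested.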
